A study of Drosophila melanogaster with 4 samples.

Results

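The genes described here are 7 genes of the circadian clock and of Pdf signalling in heads of Drosophila melanogaster: period (per, CG2647), PAR-domain protein 1 (Pdp1, CG17888), cryptochrome (cry, CG3772), jetlag (jet, CG8873), Cullin 3 (Cul3, CG42616), Pigment-dispersing factor (Pdf, CG6496) and its receptor gene Pdfr (CG13758). They were picked by name, through the Entrez identifier of each cDNA clone in the array's annotation, and are 7 of 2406 genes with values on at least 3 of 4 arrays. Each array carried a pool of heads labelled with Cy5 and a second pool labelled with Cy3, both from untreated, unmated Oregon-R males, aged 3 to 4 days by the culture description, kept on normal food (NF) at 30 flies per vial under 12 h of light and 12 h of darkness. On replicate 1 the labels put the Cy5 pool at 12 h in the treatment vessel and the Cy3 pool at 6 h, although the title of that array gives 12 h alone, while on replicates 2, 3 and 4 both pools spent 12 h there. No drug separated the pools of an array, and heads from several vials were pooled, so that a value stands for a mixture of animals. At which hour of the day the flies were frozen was not found in the sources used here. Each value is a log2 ratio, Cy5 over Cy3, and unless stated otherwise the array's own median was subtracted first ("centred"). A positive value means a higher Cy5 than Cy3 signal and is read as more of the transcript in the Cy5 pool. On replicate 1 that is the 12 h pool over the 6 h pool. On a single array a difference between the dyes at a spot cannot be told apart from a difference between the pools, and it was not tested. The methods of the study say that 2 of 4 slides were dye-swapped without saying which. The direction of each array, replicate 1 included, is therefore not certain and signs are given as labelled. Each comparison was also made with the signs of pairs of replicates 2 to 4 turned, and turning replicate 1 with another array gives the same sizes with the opposite sign.

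The fly clock runs as a loop in which the proteins CLOCK and CYCLE switch on per and its partner gene, and the PER protein then returns to the nucleus and shuts its own transcription off. PDP1, made under the control of the same pair, feeds back as an activator in a second loop. CRY is a blue-light receptor that binds the PER partner TIM in the light, and the F-box protein JET then marks TIM for breakdown, whereas CUL3, the scaffold of a different ubiquitin ligase, takes part in TIM breakdown without light. PDF is a neuropeptide that a small set of brain neurons releases to keep the other clock neurons in step, and PDFR, a receptor of the G-protein-coupled kind, answers it by raising cyclic AMP. In flies under a light and dark cycle per and Pdp1 transcripts are known to rise and fall over the day in the head, and CRY and the Pdf neurons are studied for the way light and activity set that cycle.

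Replicate 4 held 2240 spots with a value, against 7966 to 8429 on replicates 1 to 3, and its median was -0.70 before centring, against 0.14, 0.0005 and 0.08 on replicates 1, 2 and 3. All 7 genes had values on replicates 1 and 2 and 6 on replicate 3, but cry was the one gene of the 7 with a value on replicate 4 and the one without a value on replicate 3. The values of the 7 genes therefore rest on 3 arrays each. Of 35 listed marker genes of neurons, photoreceptors, glia, fat body, muscle and cuticle, 12 were measured, with some from every group. Among them were the neuronal synaptobrevin gene nSyb and the photoreceptor genes inaD, trpl and Arr1. As the values are ratios between pools of heads, they cannot check the labelled tissue. The 4 fat body markers measured had a median of 0.42 on replicate 1, against 0.21 and 0.22 on replicates 2 and 3. On replicate 1 Yp3 and Yp2 were at 1.49 and 0.89, but Lsp2 and apolpp at -0.05 and -0.19. On replicate 4 only Yp3 and apolpp had a value, at 2.08 and -0.17. The part of these markers in the results below was not tested. The number of arrays limits the precision, and the p-values measure the spread between these arrays.

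The first comparison asked whether the ratio of any of the 7 genes departed from 0 over the arrays as a whole. Both pools were untreated on every array and of equal time on replicates 2 to 4. A ratio that recurs over arrays cannot be told apart from a difference between the dyes or at the spot, and this was not tested. None passed: limma called 0 of the 7 genes and 0 of 2406 genes (0%) at an adjusted p of 0.05. The means of 5 lay below the array medians, those of Pdp1, Cul3, jet, Pdf and per, and of 2 above, those of Pdfr and cry, and 51.5% of all genes had a mean below 0. The largest mean in size was that of Pdp1, at -0.31 ± 0.10 (SD, n = 3), and the smallest was that of cry, at 0.03 ± 0.50, although cry had the largest values on single arrays. Pdp1, jet and Cul3 were below 0 on each of their 3 arrays, 3 of 7 against 25.7% of all genes, and none of the 7 was above 0 on each. With the signs of replicates 2 and 3 turned 0 of 7 were below 0 on each array, against 3.87% of all genes. With 2 and 4 turned it was 1 of 7, cry, against 11.9%, and with 3 and 4 turned 1 of 7, per, against 4.41%. At an unadjusted p under 0.05 there was 1 of the 7, Pdp1, against 17.1% of all genes that were lower at that level.

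The second comparison asked whether the array of the 12 h and 6 h pools differed from the arrays of equal times. It called 0 of the 7 genes and 0 of 2406 (0%) in limma at an adjusted p of 0.05. Only cry stood well away from its other arrays, with a value on replicate 1 that was lower by 0.86 on the log2 scale than the mean of its other 2 arrays, at an unadjusted p of 0.00785. It was the 1 of 7 that was lower at an unadjusted p under 0.05, against 1.70% of all genes. Over all genes 47 had an unadjusted p under 0.05 in this fit, 6 of them higher on replicate 1. The other 6 differences lay between -0.17 for Pdp1 and 0.26 for Pdf, within the middle 90% of all genes, -0.44 to 0.32. The differences of 5 of the 7 genes were below 0, as were 52.7% of those of all genes. Replicate 1 lay below every other array for Pdp1 and cry, 2 of 7 against 29.6% of genes, and above every other array for Pdf, 1 of 7 against 23.2%. As replicate 1 is 1 array, the fit assumes that it varies like the others, and an exact permutation of which array stands alone could not go below p = 0.25. The difference of a gene in this design carries a 95% interval of about 0.60 on the log2 scale to either side. The lack of calls therefore does not show that the 6 h and 12 h pools were alike.

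**Figure D1:**
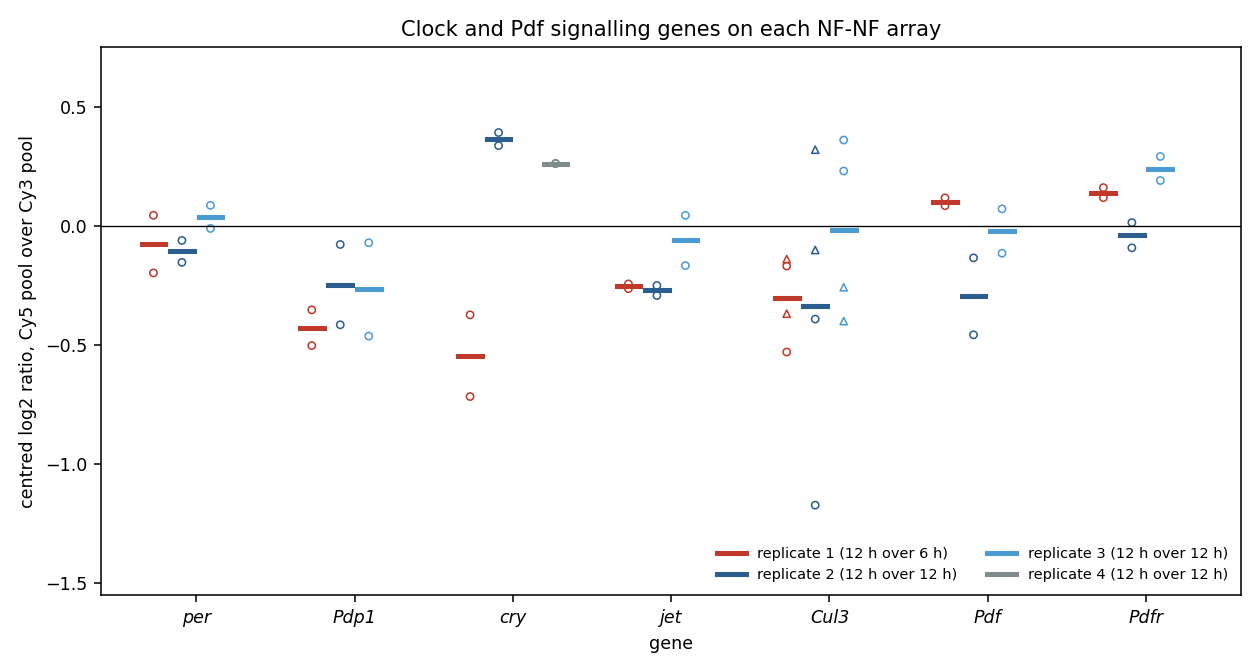
The vertical axis gives the centred log2 ratio of the Cy5 pool over the Cy3 pool and the horizontal axis the 7 genes. Open circles and triangles are single spots of a first and second clone, and bars are the gene's value on an array, with replicate 1 (12 h over 6 h) left of replicates 2 to 4 (12 h over 12 h). For cry the bar of replicate 1 is at -0.54, below those of replicates 2 and 4 at 0.36 and 0.26, while the bars of per stay within -0.11 to 0.04.

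Of the light-input genes, cry encodes the blue-light receptor of the clock neurons. Its centred log2 ratio was -0.54 on replicate 1, against 0.36 on replicate 2 and 0.26 on replicate 4. Replicate 1 was thus the low array and did not overlap the other 2. On replicate 1 the duplicate spots of the clone read -0.37 and -0.72, so both were below 0, while on replicate 2 they read 0.34 and 0.39. On replicate 4 they read 0.26 each. Taken as labelled, the transcript was at 0.69 times in the 12 h pool relative to the 6 h pool of replicate 1, and a swapped array would turn that ratio round. The difference of replicate 1 from the other arrays was -0.86 ± 0.28 (SE), with a 95% interval from -1.45 to -0.26. It was the 22nd lowest of 2406, most of which had a value on replicate 3, where cry had none. After Benjamini-Hochberg adjustment over all genes in limma its p was 1.00, and over the alternatives that could be tested it ran from 0.324 to 1.

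The size of the cry difference depended on how the arrays were brought to a common level. As deposited the values were -0.40 on replicate 1, 0.37 on replicate 2 and -0.43 on replicate 4, so replicate 1 then lay between the other 2. The difference was -0.37 as deposited, with a 95% interval from -1.23 to 0.49, and with the signs of pairs of arrays turned it ran from -0.60 to -0.23. Without replicate 2 it was -0.81 and without replicate 4 it was -0.91. The spots around the cry clone in the table were low as well on replicate 1. The 14 with a value in a window of 49 had a median of -0.57, against -0.27 on replicate 2 and 0.01 on replicate 4. With cry's own spots included the median of the window was -0.57, -0.21 and 0.04. With this median subtracted cry stood at 0.03 on replicate 1, 0.58 on replicate 2 and 0.22 on replicate 4, and the difference was -0.37 (95% interval -0.98 to 0.24). Whether the low region took part in the low value of cry was not tested.

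The F-box gene jet acts beside CRY in the light response of TIM. Its centred values were -0.25 on replicate 1, against -0.27 on replicate 2 and -0.06 on replicate 3. They lay on one side of 0 on all 3, and replicate 1 fell inside the range of the other arrays. Duplicate spots on replicates 1 and 2 differed by 0.02 and 0.04, the narrowest gap among the clones of the 7 genes on each of those arrays. The mean was -0.19 ± 0.12 (SD, n = 3), with a 95% interval from -0.42 to 0.03 and an adjusted p of 0.219 in limma. The median of the window around the jet clone was -0.0088, -0.09 and 0.22 on replicates 1 to 3, and after its subtraction jet was at -0.24, -0.18 and -0.28, a mean of -0.24 ± 0.05 with a limma adjusted p of 0.182. Replicate 1 differed from the others by -0.09 (95% interval -0.69 to 0.51).

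Cul3 belongs to the protein-turnover arm and was the one gene of the 7 measured by 2 clones. Averaged over them it was at -0.30 on replicate 1, against -0.34 on replicate 2 and -0.02 on replicate 3. Those 3 values resemble the ones of jet, and of 2280 genes with values on the same arrays jet was the third closest to Cul3, with a root mean square difference of 0.05. The clones differed from each other. The first clone was at -0.35 on replicate 1, against -0.78 and 0.30 on replicates 2 and 3, and the second at -0.25 on replicate 1, against 0.11 and -0.33. On replicates 2 and 3 the signs of the clones were thus opposite. The gap between them was 0.095 on replicate 1, but 0.89 on replicate 2, wider than in 98.5% of 135 genes with 2 clones, and 0.62 on replicate 3. On replicate 2 the duplicate spots of the first clone were themselves 0.78 apart, at -0.39 and -1.17. The gene mean was -0.22 ± 0.18 (SD, n = 3; limma adjusted p = 0.207), that of the first clone -0.28 ± 0.54 and that of the second -0.16 ± 0.23. The difference of replicate 1 from the others was -0.13 (95% interval -0.74 to 0.49).

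In the transcription loop, per had the steadiest values of the 7. It was at -0.08 on replicate 1, against -0.11 on replicate 2 and 0.04 on replicate 3. Replicate 1 lay between the other arrays. Its duplicate spots were at -0.20 and 0.05 on replicate 1, so the spots of 1 clone on 1 slide differed by more than the 3 arrays did. The SD over arrays was 0.08, lower than in all but 14.3% of genes, and the mean was -0.05, with a 95% interval from -0.27 to 0.17 (limma adjusted p = 0.748). The difference of replicate 1 from the others was -0.04, with a 95% interval from -0.64 to 0.55, equal to 0.64 to 1.47 in fold. A change in per of that size between 6 h and 12 h could not have been told from none on these arrays. A second clone annotated to per had no value on any array.

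Pdp1 encodes a basic leucine zipper activator of the second loop. It was at -0.43 on replicate 1, against -0.25 on replicate 2 and -0.27 on replicate 3. All 3 values were below 0 and replicate 1 was the lowest. Each of the 6 spots was below 0 after centring, from -0.07 to -0.50. Its mean of -0.31 ± 0.10 had a 95% interval from -0.54 to -0.09, an unadjusted p of 0.0128 and an adjusted p of 0.102 in limma, and it was lower in 3 of 3 arrays. The spots around the Pdp1 clone were low on the same arrays, at -0.45, -0.23 and -0.37 on replicates 1 to 3, with values at 13 or 14 spots besides its own. With this median subtracted Pdp1 was at 0.02, -0.02 and 0.10, a mean of 0.04 ± 0.06. The part of the surrounding spots in the low value was not tested. The difference of replicate 1 from the others was -0.17 (95% interval -0.76 to 0.42).

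**Figure D2:**
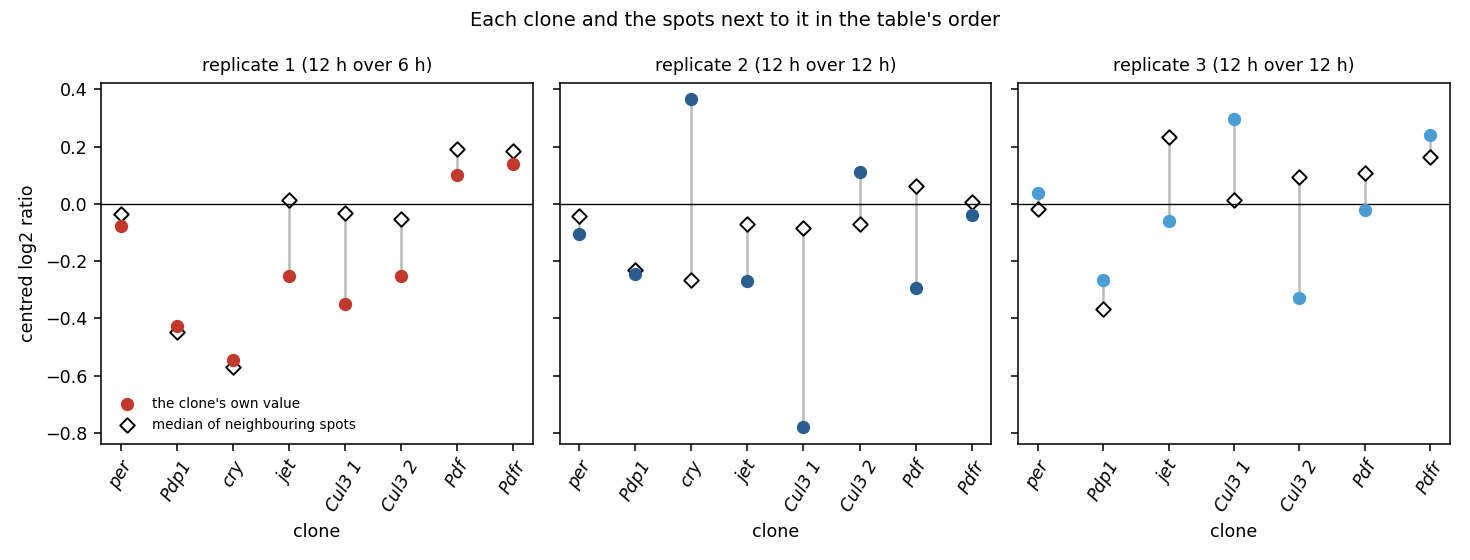
The vertical axis gives the centred log2 ratio and each panel is one array, with replicate 1 on the left. Filled points are the clones of the 7 genes (Cul3 has 2) and open diamonds the median of the spots around each clone in the table's order, without the clone itself. On replicate 1 the points of cry and Pdp1, at -0.54 and -0.43, sit next to their diamonds at -0.57 and -0.45, while those of jet and Cul3 lie below theirs.

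Pdf, the gene of the neuropeptide, is expressed in few neurons of the head. It was at 0.10 on replicate 1, against -0.29 on replicate 2 and -0.02 on replicate 3. Replicate 1 was the highest array and the only one above 0. The duplicate spots were 0.03 apart on replicate 1 and 0.32 apart on replicate 2. The difference of replicate 1 from the others was 0.26 (95% interval -0.35 to 0.87), equal to 1.20 in fold, and 91.3% of genes had a lower difference. Its mean was -0.07 ± 0.20 (SD, n = 3; limma adjusted p = 0.676). The median of its window was 0.18, 0.04 and 0.10, and after its subtraction Pdf was below 0 on all 3 arrays, at -0.08, -0.33 and -0.12. In whole heads fewer neurons that make a transcript and less of it in each neuron cannot be told apart.

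The receptor gene Pdfr was at 0.14 on replicate 1, against -0.04 on replicate 2 and 0.24 on replicate 3. Replicate 1 lay between the others. Duplicate spots differed by 0.04 on replicate 1, 0.11 on replicate 2 and 0.10 on replicate 3. The mean of 0.11 ± 0.14 was the highest of the 7, but its 95% interval ran from -0.12 to 0.35 (limma adjusted p = 0.452). The median of its window was 0.17, 0.005 and 0.19, and after its subtraction the mean was -0.01 ± 0.05. Replicate 1 differed from the others by 0.04 (95% interval -0.57 to 0.65). The peptide and its receptor shared the order of replicates 1 and 2, but on replicate 3 Pdf was below 0 and Pdfr at its highest.

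**Figure D3:**
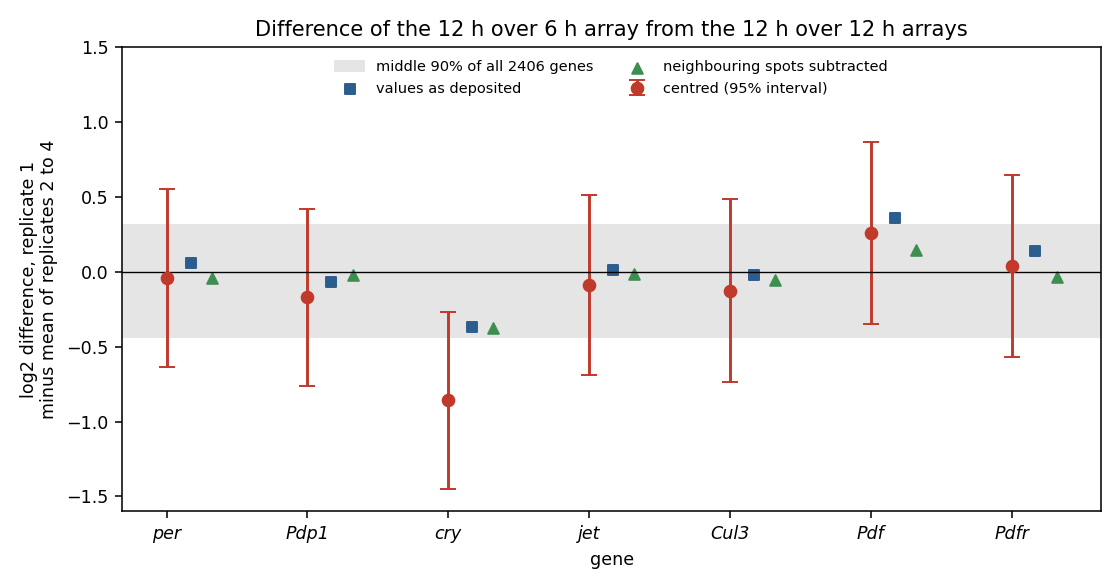
The vertical axis gives the log2 difference of replicate 1 (12 h over 6 h) from the mean of the other arrays (12 h over 12 h) for each of the 7 genes. Red points are centred values with the 95% interval of the limma fit, squares the values as deposited, triangles the values with neighbouring spots subtracted, and the grey band holds the middle 90% of all genes. The interval of cry, -1.45 to -0.26, is the one that leaves out 0, and its square and triangle lie at -0.37, inside the band. Most genes of the band had a value on replicate 3, where cry had none.

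The median of those of the 7 genes with a value was -0.25 on replicates 1 and 2 and -0.02 on replicate 3, where cry was absent. Below 0 on replicates 1, 2 and 3 were 5 of 7, 6 of 7 and 4 of 6, against 51.5%, 50.5% and 50.7% of all genes. Replicates 1 and 3 were the arrays most alike over all clones (r = 0.714 over clones, which share slide, labelling and normalization). On these arrays 4 of 6 genes had one sign, against 82.0% of all genes. The r was 0.43 for replicates 1 and 2, 0.36 for 2 and 3 and 0.35 for 2 and 4. It was -0.01 for replicates 1 and 4 and 0.01 for 3 and 4. The size of the ratio on replicate 1, whatever its sign, was larger than on every other array for Pdp1 and cry, 2 of 7 against 33.8% of genes. The SD over arrays ran from 0.08 for per to 0.50 for cry, which was wider than 96.9% of genes. Duplicate spots of the members were 0.001 to 0.78 apart, with a median of 0.15, and on 15 of 24 pairs of spots the gap was wider than the array's median gap, which was 0.10 to 0.13.

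The closest genes over the same arrays were apt, Slob and Elovl7 for per, with root mean square differences of 0.02 over replicates 1 to 3, where 168 genes lay within 0.1. Slob encodes a protein that binds the calcium-activated potassium channel Slowpoke. For Pdp1 they were CG17144, bgm and Mes2 (0.01 to 0.03), for jet CG10395, DnaJ-H and CG9328 (0.02 to 0.04), for Pdf CG17199, dpr6 and Scamp (0.02 to 0.05) and for Pdfr CG13216, Ppa and CG17715 (0.02). For Cul3 they were PpV, Mgat4a and jet (0.05 each). For cry only 1 of 563 genes with values on replicates 1, 2 and 4 lay within 0.1. It was Pgi, with -0.54 on replicate 1, against 0.21 on replicate 2 and 0.26 on replicate 4. The other members were compared over replicates 1 to 3 among 2280 genes, so the count of cry cannot be ranked beside theirs. The next were CG17490 and inaC, which encodes the protein kinase C of photoreceptors, at differences of 0.14 and 0.17. Such closeness over 3 arrays is a description of these values alone.

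The 7 genes were then set beside the rest of their pathways. Of 104 genes listed for the clock and Pdf signalling, 56 were found under their names in the annotation and 28 had values on at least 3 arrays, 21 of them besides the 7. None was called, 0 of 28, and 10 had an unadjusted p under 0.05, 35.7% against 30.4% of all genes. Of the 28, 11 had a mean above and 17 a mean below the array medians, with a median of -0.10, against -0.01 over all genes. On replicate 1 against the others 0 of 28 were called, and cry was the 1 with an unadjusted p under 0.05. The lists overlap and the choice of genes followed earlier results of these data.

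Around PDF and its receptor 7 of 14 genes were measured, with 2 means above and 5 below the medians. None was called. Ac76E, an adenylyl cyclase, was at -0.93 ± 0.65 (SD, n = 3), Galphas, the stimulatory G protein that couples such receptors to cyclases, at -0.59 ± 0.19 (n = 3), Pka-R1, a regulatory subunit of protein kinase A, at -0.32 ± 0.21 (n = 4) and the cyclase Ac78C at -0.13 ± 0.09 (n = 3). Of these Ac76E spread most, at -1.03 on replicate 1, against -0.24 and -1.53 on replicates 2 and 3. Nf1, which encodes neurofibromin, was at 0.03 ± 0.17. The limma adjusted p of Galphas was 0.0663 and that of Ac76E 0.0794. After subtraction of the neighbouring spots Galphas stood at -0.06 ± 0.02, Pka-R1 at -0.05 ± 0.07, and Ac76E at -0.38 ± 0.43 (adjusted p = 0.328 in limma).

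In light input 3 of 8 genes were measured, and beside cry and jet there was Rh7, a rhodopsin of brain pacemaker neurons. Rh7 was at -0.82 on replicate 1, against -0.68 and -1.02 on replicates 2 and 3. All its values were far below 0 and they did not separate replicate 1 from the rest. Its mean of -0.84 ± 0.17 (SD, n = 3) had an adjusted p of 0.0629 in limma, below which no gene fell, and with neighbouring spots subtracted it was at -0.38 ± 0.04 (adjusted p = 0.152 in limma). One-class SAM, the significance test named in the study's methods and rebuilt here, called 40 of 2406 genes, among them Rh7 and no other of the 28. The study's own SAM run on its NF-NF control arrays, by contrast, reported no differentially expressed gene except at a very high false discovery rate. In the transcription loop per and Pdp1 were the 2 genes measured of 8, and spots named Clk, tim and kay had no value on any array. Of 16 genes for kinases, phosphatases and turnover of clock proteins 2 were measured: slmb, an F-box gene for PER breakdown, at -0.30 ± 0.10 (limma adjusted p = 0.108), and the kinase gene Doa at 0.07 ± 0.09.

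Of 21 genes of cullin ligases and of the COP9 signalosome, which removes the Nedd8 tag from cullins, 6 were measured, 4 of them above the medians and 2 below. CSN6 and CSN3, subunits of the signalosome, were at 0.21 ± 0.14 and 0.13 ± 0.12 (SD, n = 3), Cul5 at 0.09 ± 0.26 (n = 4) and CSN8 at 0.05 ± 0.04. Below lay Cul3 and dbo, a kelch partner of Cul3, at -0.25 ± 0.35. Among genes of clock output and of the excitability of clock neurons 6 of 21 were measured, 3 above and 3 below. The channel-complex gene unc80 was highest, at 0.27 ± 0.14 (limma adjusted p = 0.130), and disco, whose mutants have disturbed clock neurons and activity rhythms, was lowest, at -0.49 ± 0.27 (n = 4; limma adjusted p = 0.0663), but at -0.04 ± 0.07 with neighbouring spots subtracted. The potassium channel gene Sh was at -0.22 ± 0.09 (n = 4) and Slob at 0.02 ± 0.15 (n = 4). Of the peptide lists 1 gene each was measured, the maturation enzyme gene Pal2 at -0.06 ± 0.01 and the neuropeptide precursor gene Nplp1 at -0.35 ± 0.07 (limma adjusted p = 0.0867), which with neighbouring spots subtracted was at -0.11 ± 0.06.

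When replicate 4 was left out of the fit, limma called 214 of 2406 genes, 7.52% of all genes being called lower, and 6 of the 28 were among them. They were Rh7, disco, Galphas, Ac76E, Pka-R1 and Nplp1, all lower, with adjusted p from 0.0181 to 0.0493, and none was among the 7 genes described above. Of the 6, only disco and Pka-R1 had a value on replicate 4. The means of the others, such as Rh7 at -0.84, were the same in both fits. For them only the variance estimate shared over genes and the adjustment changed. The lists were chosen with earlier results of these data known. With the neighbouring spots subtracted 0 of the 28 passed.

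**Figure D4:**
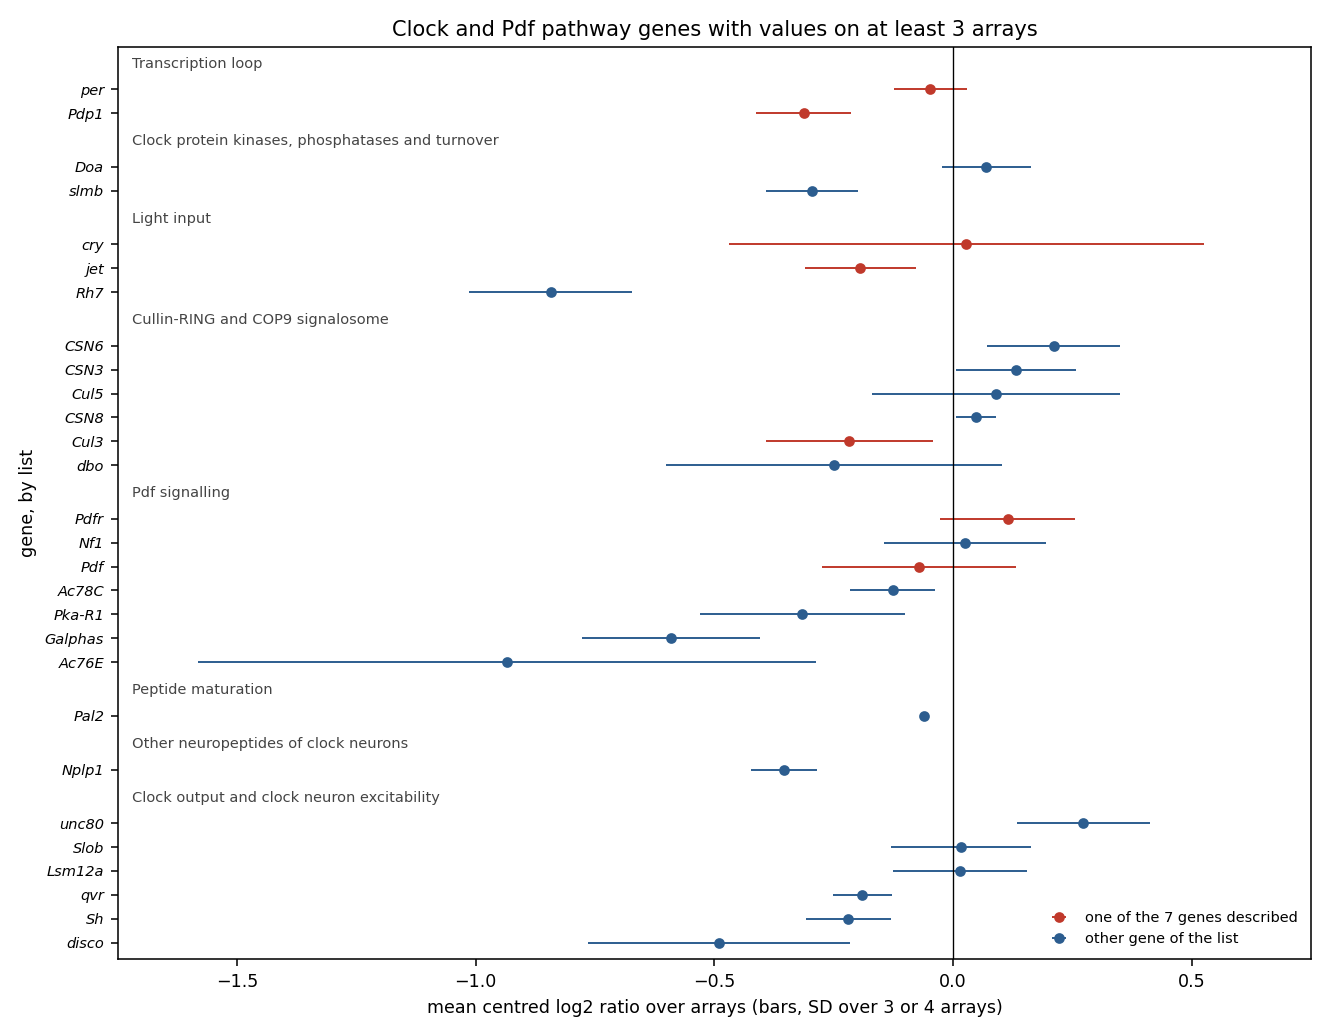
The horizontal axis gives the mean centred log2 ratio and the bars the SD over 3 or 4 arrays of the 28 genes measured, in rows by list, with the 7 genes described above in red. Rh7 and Ac76E lie furthest to the left, at -0.84 and -0.93, the bar of cry is wide, and the red points lie between -0.31 and 0.11.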

How the data were processed

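Heads of untreated males were compared pool against pool on 4 two-colour cDNA arrays (NF-NF, replicates 1 to 4, 1 group). The authors quantified scans in GenePix Pro 6.0 and normalized ratios per slide in Acuity 4.0, leaving out weak, saturated, uneven or marked spots. The deposited values are log2 ratios of Cy5 over Cy3, and scanner intensities were not used here. Adjacent duplicate spots were averaged to 13824 clones, and each array's median over the 4208 clones with values on at least 3 arrays was subtracted. Clones of 1 gene were averaged. Clone names came from the platform annotation, updated by Entrez identifier through a RefSeq table of Release 6 for 97.9% of 15218 probes, and 16 clones with several names and 1641 with none were not named. Genes were tested against 0, and replicate 1 against replicates 2 to 4, with limma 3.58.1 in R 4.3.3 (two-sided, empirical Bayes, Benjamini-Hochberg over 2406 genes, threshold 0.05). One-class SAM, the test of the study's methods, was rebuilt as an alternative on the centred gene values, and is not the paper's own run. Other alternatives were uncentred values, subtraction of the median of the spots with a value in a window of 49 (13 to 40 besides the clone's own for the 7 genes), turned signs, common spread, other filters, robust moderation and leaving out each replicate. Named were the 7 genes, their 3 closest genes by root mean square difference, and of each pathway list the 2 highest and 2 lowest measured genes. Pka-R1, Ac78C, Cul5, CSN8 and the marker genes were named after their values were seen, and list genes on 1 array are given by value. The members and lists were chosen with earlier results of these data known.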

Additional observations from a re-analysis of the deposited data

Results flagged for a closer look

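The number of spots with a value stood apart on replicate 4, with 2240 against 7966 to 8429 on the other arrays, a gap of 0.925 of the whole range. It was the 1 set of 15 sets of 4 array values examined in which an array stood apart, and chance gives about 1 in 20. Of the 7 clock and Pdf genes only cry had a value on that array and none of the 7 had values on all 4 arrays.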

How the results depend on the processing

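No alternative called any of the 7 genes in either comparison. The limma adjusted p of their means ran from 0.0654 (Pdp1 without replicate 4) upwards, and that of their differences from 0.159 (Pdp1, signs of replicates 2 and 3 turned). Over all genes, 0 were called against 0, but 40 by one-class SAM (9 higher, 31 lower) and between 0 and 214 when 1 replicate was left out, with 10 without replicate 1, 0 without replicate 2, 11 without replicate 3 and 214 without replicate 4. For replicate 1 against the others the count was 0, but 115, 1 and 2 with the signs of replicates 2 and 3, 2 and 4, and 3 and 4 turned, and between 0 and 1 when 1 replicate was left out, the 1 without replicate 4.

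The sign of a mean turned in 20 alternative values and held in 78, and that of a difference with a test turned in 8. As deposited the means of per, cry and Pdf were 0.0255, -0.158 and 0.002, and the differences of per and jet 0.0592 and 0.0137. With neighbouring spots subtracted the means of Pdp1 and Pdfr were 0.0358 and -0.0092 and the difference of Pdfr -0.0365. With a common spread the differences of per, jet and Cul3 were 0.0029, 0.0121 and 0.0044. With the signs of replicates 2 and 3 turned the means of Pdp1, cry, jet, Cul3, Pdf and Pdfr were 0.0284, -0.216, 0.0261, 0.0169, 0.139 and -0.0209 and the difference of Pdf -0.0563. With 2 and 4 turned the means of per, cry, Cul3 and Pdf were 0.0231, -0.391, 0.0063 and 0.125 and the difference of Pdf -0.0352. With 3 and 4 turned the means of cry and Pdfr were -0.147 and -0.0466. Leaving out 1 replicate moved the mean of cry between -0.141 and 0.314 and that of Pdf between -0.158 and 0.0404. The causes were not tested. Without replicate 3 the differences of per, jet and Cul3 were 0.0307, 0.0177 and 0.0348, and without replicate 2 that of Pdfr was -0.101, with no test, as 1 other array was left. No paired analysis was possible because there was 1 group. Scanner intensities were not used here, so how far a spot stood above background is unknown.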

Other observations

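A few pathway genes had values outside the comparisons. Spots named Cul2 and alien, the gene of a further COP9 signalosome subunit, had a value on replicate 4 alone, at -0.07 and 0.71 after centring. Of the fat body markers, the yolk protein genes had the highest values. Yp3 was at 1.49 on replicate 1, against 0.34, 1.31 and 2.08 on replicates 2 to 4, and Yp2 at 0.89 on replicate 1, against 0.30 and 0.36 on replicates 2 and 3. Of the 6 fat body markers listed 4 were measured, and Lsp2 and apolpp, at 0.05 ± 0.09 and -0.07 ± 0.14, did not share those values. Their part in the values of the 7 genes was not tested.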
